A study of Homo sapiens with 18 samples.

Results

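Small nucleolar RNA host genes are long noncoding RNAs (lncRNAs) whose introns carry small nucleolar RNAs (snoRNAs), the guides for chemical modification of ribosomal and spliceosomal RNA. The genes described were the lncRNA entries with a symbol of SNHG and a number, together with GAS5, ZFAS1, DANCR and EPB41L4A-AS1. There were 28 of them among 19068 genes in the files of either cell line, or among 2618 lncRNA entries, and all 28 were listed and tested in both lines.

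Expression was measured by stranded total RNA sequencing in 2 human leukaemia lines, the promyelocytic HL-60 and the monocytic acute myeloid MOLM-13. Each line was grown in RPMI1640 for 48 h with the solvent dimethyl sulfoxide (DMSO), with decitabine (DAC) or with NTX-301, with 3 replicates in each of 6 groups and 18 samples in all. Once built into DNA, DAC binds and depletes DNA methyltransferases, and NTX-301 is another nucleoside inhibitor of these enzymes. HL-60 received a stated 30 nM and MOLM-13 a stated 15 nM, in words that do not settle whether it covers both drugs, so that dose and line cannot be told apart. Nothing says that replicates came from separate cultures, so p-values measure only the spread between these samples, which may be technical.

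In these genes the snoRNA is cut from the excised intron, and the spliced exons make a second product. The spliced RNA of several of them has only short reading frames, is nevertheless bound by ribosomes and is removed by nonsense-mediated decay, a pathway that degrades RNA as it is translated. GAS5, the growth arrest-specific transcript, is known to accumulate when cells stop growing or when translation is blocked. GAS5 and other host genes also belong to the 5′ terminal oligopyrimidine class, whose RNAs begin with a C and a run of pyrimidines, as ribosomal protein mRNAs do.

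The annotated starts of the host genes are shown first, because the run of pyrimidines is the sequence feature that sets part of this family apart. RefSeq (GRCh38.p14) gave a promoter for 24 of the 28 genes. For 10 of these the 60 bases around the annotated start are printed, 30 before it and 30 from it onwards, on the gene's strand. Capitals mark the longest run of pyrimidines opened by a C near the start. The first 6 genes have a C at the start itself followed by at least 4 pyrimidines, and are all of the 24 that do.
SNHG12 (chr1:28581844-28581903, minus strand): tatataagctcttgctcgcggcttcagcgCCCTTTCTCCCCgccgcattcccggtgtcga
SNHG19 (chr16:2155329-2155388, minus strand): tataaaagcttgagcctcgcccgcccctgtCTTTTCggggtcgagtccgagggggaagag
SNHG4 (chr5:139274071-139274130, plus strand): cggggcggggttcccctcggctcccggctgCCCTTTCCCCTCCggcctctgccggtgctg
SNHG5 (chr6:85678704-85678763, minus strand): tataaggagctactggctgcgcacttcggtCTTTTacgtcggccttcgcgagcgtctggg
SNHG32 (chr6:31834886-31834945, plus strand): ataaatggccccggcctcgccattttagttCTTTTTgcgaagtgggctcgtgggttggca
ZFAS1 (chr20:49278612-49278671, plus strand): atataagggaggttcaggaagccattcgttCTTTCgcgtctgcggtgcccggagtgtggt
DANCR (chr4:52712364-52712423, plus strand): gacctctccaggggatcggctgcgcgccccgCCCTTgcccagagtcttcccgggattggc
SNHG7 (chr9:136728155-136728214, minus strand): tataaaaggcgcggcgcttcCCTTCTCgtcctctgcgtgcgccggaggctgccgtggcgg
SNHG1 (chr11:62855856-62855915, minus strand): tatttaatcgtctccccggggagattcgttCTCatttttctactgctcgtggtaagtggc
SNHG3 (chr1:28505913-28505972, plus strand): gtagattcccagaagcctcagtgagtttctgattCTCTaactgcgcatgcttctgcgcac

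RefSeq and GENCODE v29 place some starts differently. For GAS5, the most shared start among GENCODE transcripts (6 of 29) lies inside the RefSeq span, and the first 30 bases from it are its whole first exon. SNHG16 also begins with a C and pyrimidines at its most shared GENCODE start and not at its RefSeq start.
GAS5 (chr1:173867960-173867989, minus strand): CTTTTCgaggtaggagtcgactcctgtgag
SNHG16 (chr17:76557769-76557798, plus strand): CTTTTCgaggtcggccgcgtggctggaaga

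GAS5, SNHG16 and SNHG19 share the same first 6 bases at these starts. A C at the RefSeq start followed by at least 4 pyrimidines, read on the gene's strand, was found in 6 of 24 host genes (25%) and in 5.1% of 27305 genes with a RefSeq promoter. At the most shared GENCODE start it was found in 7 of 27 host genes (25.9%) and in 2.1% of 58721 genes, a count added after the RefSeq windows had been seen. Those 58721 are GENCODE genes of every type, not lncRNAs alone, so the 2.1% is not a share of genes like the host genes. Where several starts were equally shared, the most upstream was taken. For some genes it rests on 1 transcript, as for DANCR (1 of 5) and SNHG15 (1 of 10). In all, 10 host genes had it in either annotation, and 3 of them (SNHG12, SNHG19 and SNHG5) in both. These are matches of letters at annotated starts, and the starts used in these cells were not measured.

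Values are normalized log2 levels per gene, and low genes appear to be drawn towards their own mean, which was not tested and, if so, would understate their changes. Levels are not per length and are not compared between genes, nor between lines, which appear to have been normalized apart. The mean levels of the host genes lay between 5.62 and 14.91 in HL-60 and between 5.51 and 15.89 in MOLM-13. Their linear values made up 0.263% to 0.283% of the sum of all genes in the HL-60 samples and 0.275% to 0.287% in MOLM-13. The SD between replicates had a median over the host genes of 0.032 in HL-60 and 0.043 in MOLM-13. In DMSO, all 6 promyelocytic markers were listed in both lines, at 12.8 to 18.71 in HL-60 and 13.04 to 16.89 in MOLM-13. Their listing therefore does not tell the lines apart. Of 6 markers chosen for MOLM-13, 4 were listed in HL-60 and 6 in MOLM-13, with MEIS1 and HOXA9 in MOLM-13 only (12.56 and 12.43). Of 11 markers of other cells, 2 were listed in HL-60, at 4.63 and 6.43. In MOLM-13 5 were listed, at 5.15 to 8.62 with HBB highest. In a bulk sample, fewer cells with an RNA and less of it in each cell cannot be told apart.

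The first question was how each drug moved the host genes against DMSO. A gene was called higher or lower when its adjusted p-value was under 0.05 in limma, with the Benjamini-Hochberg adjustment made across every gene of the table. In HL-60, DAC called 15 of 28 host genes where 24.2% of all genes were called, 14 of them lower (12.6% of all genes) and 1, SNHG14, higher (11.6%). NTX-301 in HL-60 called 18 of 28 against 37.4% of all genes, 15 lower (19.2%) and 3 higher (18.3%). In MOLM-13, DAC called 13 of 28 against 36.6%, 9 lower (21.2%) and 4 higher (15.4%). NTX-301 in MOLM-13 called 15 of 28 against 45.1%, 12 lower (24.8%) and 3 higher (20.3%). The median log2 change of the 28 was −0.09, −0.11, −0.07 and −0.09 in these 4 comparisons, where the median of all genes was 0.00064, 0.00082, 0.0013 and 0.0034. All changes were modest, the largest being a fall to 0.72 of the DMSO level.

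**Figure D1:**
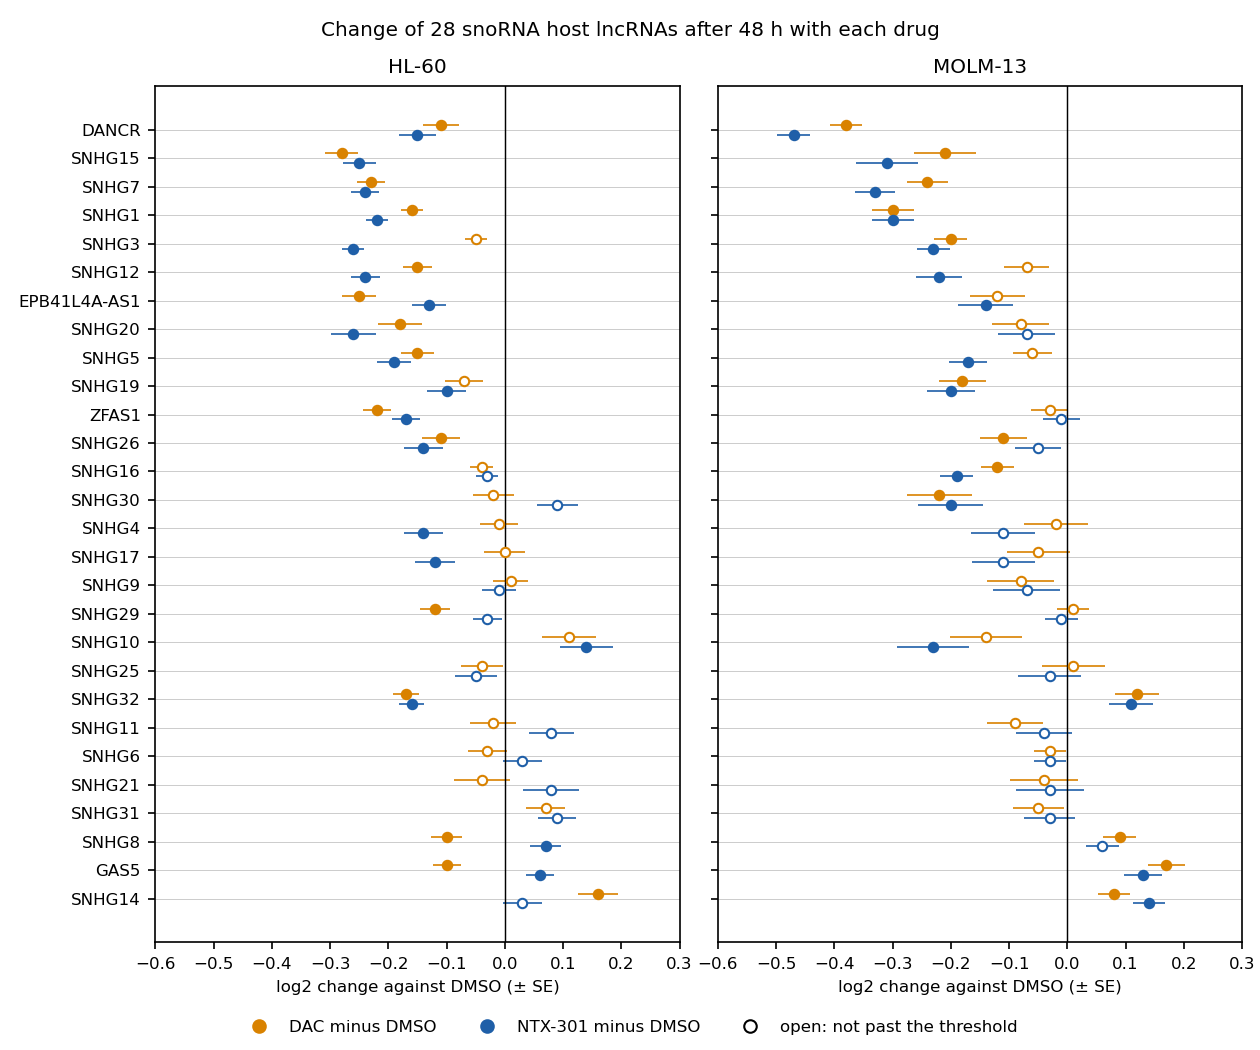
Log2 change against DMSO (x axis, point ± SE of limma, 3 samples per group) of each of the 28 host genes (rows, ordered by the sum of their 4 changes), for DAC (orange) and NTX-301 (blue) in HL-60 (left) and MOLM-13 (right), filled where the adjusted p-value was under 0.05. Most filled points lie left of 0, and DANCR reaches −0.47 in MOLM-13. SNHG32 and SNHG10 lie on opposite sides of 0 in the left and right panels, and GAS5 and SNHG8 lie left of 0 only for DAC in HL-60.

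Highly expressed genes were called lower more often than others in these tables, and most host genes are highly expressed. Of 21 host genes with a mean level of at least 10 in HL-60, DAC lowered 13 (61.9%) and NTX-301 lowered 14 (66.7%), where 21.7% and 33.7% of all genes at that level were lower. In MOLM-13, 18 host genes reached that level, and DAC lowered 6 of them (33.3%) and NTX-301 lowered 10 (55.6%), where 39.9% and 45.9% of all such genes were lower. The share of host genes lowered was thus above that of genes at the same level in HL-60, and in MOLM-13 below it for DAC and above it for NTX-301. When every sample was centred on its median, the balance of calls over all genes shifted in 3 of the 4 comparisons. For NTX-301 in HL-60 the split went from 3265 lower and 3115 higher to 5400 lower and 2310 higher, and the host genes from 15 lower and 3 higher to 16 and 1. For DAC in MOLM-13 it went from 3705 lower and 2689 higher to 5731 and 1960, and the host genes from 9 lower and 4 higher to 14 and 1. For NTX-301 in MOLM-13 it went from 4337 lower and 3543 higher to 5760 and 2735, and the host genes from 12 lower and 3 higher to 14 and 2. With quantile normalization more of the MOLM-13 host genes were called higher, where centring left fewer. The counts were 9 lower and 5 higher for DAC and 13 lower and 7 higher for NTX-301. All genes stood at 2979 lower and 2599 higher for DAC and at 3687 and 3273 for NTX-301.

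**Figure D2:**
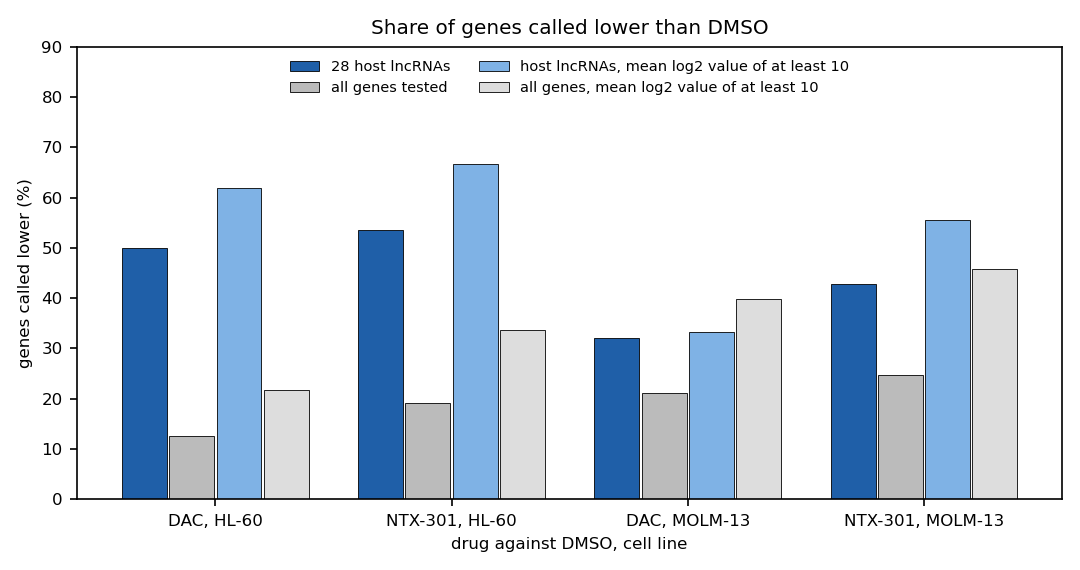
Percent of genes called lower than DMSO (y axis) in each of the 4 comparisons (x axis), for the 28 host genes and all genes tested (darker bars), and for those with a mean log2 level of at least 10 (lighter bars). In HL-60 the bars of the host genes (50% to 66.7%) stand above those of all genes (12.6% to 33.7%), and in MOLM-13 the lighter bars lie close to each other, at 33.3% and 39.9% for DAC.

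Over the 4 comparisons with DMSO, 17 host genes were lower in at least 1 and higher in none. SNHG14 was higher in at least 1 and lower in none, 4 were higher in 1 and lower in another, and 6 passed in none. The shares of all genes with these patterns were not counted, so the counts do not set the host genes apart from other genes. The 4 host genes lower in all 4 were DANCR, SNHG1, SNHG7 and SNHG15, against 3.55% of the 15474 genes tested in both lines.

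DANCR, a transcript first named for holding back the differentiation of epidermal progenitor cells and the host of SNORA26, showed the largest fall. In MOLM-13 its log2 values were 12.46, 12.53 and 12.50 in DMSO, 12.13, 12.12 and 12.10 with DAC, and 12.06, 12.03 and 12 with NTX-301. Every treated sample lay below every DMSO sample, and the log2 change was −0.38 ± 0.028 (SE) for DAC and −0.47 ± 0.028 for NTX-301 (adjusted p = 2.57e-06 and 4.34e-07). In HL-60 the values were 12.19, 12.24 and 12.31 in DMSO, 12.14, 12.11 and 12.18 with DAC, and 12.10, 12.07 and 12.12 with NTX-301. There the groups again did not overlap, but the gaps were narrow, with a change of −0.11 ± 0.031 for DAC (adjusted p = 0.0259) and −0.15 ± 0.031 for NTX-301 (adjusted p = 0.00162). The DAC call in HL-60 was lost without DAC replicate 1, DAC replicate 2, DMSO replicate 2 or DMSO replicate 3 (adjusted p of 0.0724, 0.0988, 0.0622 and 0.108), and the change was −0.071 without DMSO replicate 3. The fall was larger in MOLM-13 than in HL-60 by 0.27 for DAC (MOLM-13 minus HL-60 of −0.27 ± 0.043, adjusted p = 7.89e-05) and by 0.32 for NTX-301 (−0.32 ± 0.043, adjusted p = 9.32e-06), in limma's fit of all 18 samples.

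SNHG1, host of 8 box C/D snoRNAs, which guide methylation of ribosomal RNA, fell in both lines. Its values in HL-60 were 13.86, 13.88 and 13.84 in DMSO, 13.70, 13.67 and 13.71 with DAC, and 13.63, 13.62 and 13.65 with NTX-301. In MOLM-13 they were 13.14, 13.20 and 13.06 in DMSO, 12.88, 12.80 and 12.81 with DAC, and 12.81, 12.86 and 12.82 with NTX-301. The 3 groups stood in separate steps in HL-60, and in MOLM-13 both drugs lay at about the same level below DMSO. The HL-60 step from DAC to NTX-301 was small, at −0.06 ± 0.019 (adjusted p = 0.0309). That call was lost with quantile normalization (0.186) and without DAC replicate 1 or 3 or NTX-301 replicate 1 or 2 (0.0772 to 0.109). The log2 changes were −0.16 ± 0.019 and −0.22 ± 0.019 in HL-60 (adjusted p = 4.06e-05 and 7.51e-07 for DAC and NTX-301) and −0.30 ± 0.036 for each drug in MOLM-13 (adjusted p = 6.52e-05 and 4.2e-05). With quantile normalization the NTX-301 change in MOLM-13 was −0.20.

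SNHG7, which carries the box H/ACA snoRNAs SNORA17A and SNORA17B, changed by nearly the same amount with both drugs in HL-60. There its values were 12.92, 12.96 and 12.96 in DMSO, 12.75, 12.71 and 12.69 with DAC, and 12.74, 12.68 and 12.70 with NTX-301. MOLM-13 gave 12.20, 12.21 and 12.17 in DMSO, 11.99, 11.89 and 11.97 with DAC, and 11.91, 11.87 and 11.80 with NTX-301. Treated and DMSO samples did not overlap in either line. HL-60 changed by −0.23 ± 0.024 and −0.24 ± 0.024, MOLM-13 by −0.24 ± 0.035 and −0.33 ± 0.035 (adjusted p between 3.61e-06 and 0.000246).

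SNHG15, host of SNORA9 and known as a short-lived RNA, stood in HL-60 at 11.49, 11.53 and 11.50 in DMSO, 11.28, 11.19 and 11.22 with DAC, and 11.26, 11.27 and 11.23 with NTX-301. In MOLM-13 it stood at 11.12, 11.22 and 11.16 in DMSO, 11.01, 10.87 and 11 with DAC, and 10.74, 10.94 and 10.89 with NTX-301. The treated samples lay below DMSO throughout, with a wider spread in MOLM-13. The changes were −0.28 ± 0.028 and −0.25 ± 0.028 in HL-60 (adjusted p = 8.07e-06 and 6.78e-06) and −0.21 ± 0.053 and −0.31 ± 0.053 in MOLM-13 (adjusted p = 0.00913 and 0.00057).

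**Figure D3:**
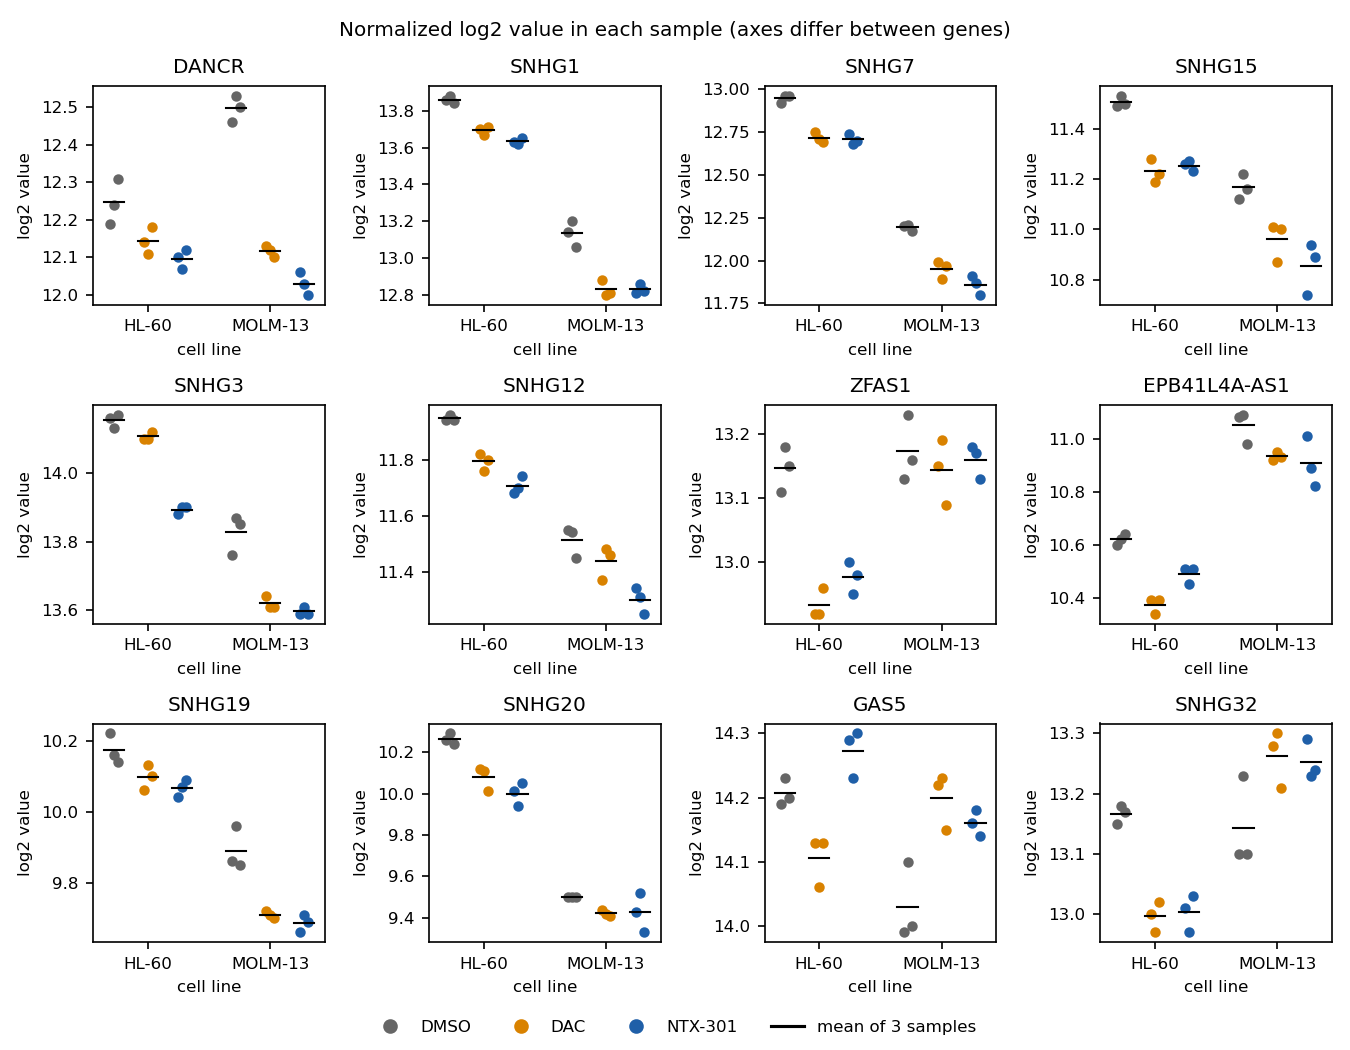
Normalized log2 value (y axis, a separate scale in each panel) of 12 host genes in each of the 18 samples, by line (x axis) and treatment (grey DMSO, orange DAC, blue NTX-301), with the mean of 3 samples as a bar. DANCR, SNHG1, SNHG7 and SNHG15 fall with both drugs in both lines, SNHG3 steps down in HL-60 only with NTX-301 (13.88 to 13.90), and GAS5 and SNHG32 change in opposite directions in the 2 lines with DAC.

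Another 6 host genes described next fell in 2 or 3 of the 4 comparisons. SNHG3 hosts SNORA73A and SNORA73B, box H/ACA snoRNAs that act in cutting of the ribosomal RNA precursor. Its values in HL-60 were 14.16, 14.13 and 14.17 in DMSO, 14.10, 14.10 and 14.12 with DAC, and 13.88, 13.90 and 13.90 with NTX-301. NTX-301 thus set it apart from both other groups, with a change of −0.26 ± 0.019 (adjusted p = 1.15e-07), whereas the DAC change of −0.05 ± 0.019 did not pass (adjusted p = 0.0926). In MOLM-13 it read 13.76, 13.87 and 13.85 in DMSO, 13.64, 13.61 and 13.61 with DAC, and 13.59, 13.61 and 13.59 with NTX-301. Both drugs lowered it there, by −0.20 ± 0.028 and −0.23 ± 0.028 (adjusted p = 0.00018 and 5.29e-05), and with quantile normalization by −0.10 and −0.11. SNHG3 lies within the span of RCC1 on the same strand, a regulator of nuclear transport, and RCC1 was lower in all 4 comparisons. It fell by −0.09 and −0.21 in HL-60 (adjusted p = 0.014 and 5.99e-06), the DAC call there being one that SNHG3 did not share and lost without DMSO replicate 3 (0.0565), and by −0.22 and −0.33 in MOLM-13 (adjusted p = 8.78e-05 and 3.79e-06), the former −0.13 with quantile normalization. How reads of the shared span were divided is not given in the sources used here.

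SNHG12 carries 4 snoRNAs and has a run of 12 pyrimidines across its start. In HL-60 it stood at 11.94, 11.96 and 11.94 in DMSO, 11.82, 11.76 and 11.80 with DAC, and 11.68, 11.70 and 11.74 with NTX-301. The MOLM-13 values were 11.55, 11.54 and 11.45 in DMSO, 11.37, 11.48 and 11.46 with DAC, and 11.34, 11.31 and 11.25 with NTX-301. DAC and DMSO samples overlapped in MOLM-13, and the other comparisons with DMSO did not. The changes were −0.15 ± 0.025 and −0.24 ± 0.025 in HL-60 (adjusted p = 0.000615 and 4.18e-06), and −0.22 ± 0.039 with NTX-301 in MOLM-13 (adjusted p = 0.000811), where DAC gave −0.07 ± 0.039 (adjusted p = 0.165). TRNAU1AP, which overlaps SNHG12 on the other strand, was lower in MOLM-13 by −0.27 with DAC and −0.20 with NTX-301 (0.000602 and 0.00378). In HL-60 it was not called, at −0.04 and −0.07 (0.562 and 0.217).

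ZFAS1, antisense to the start of ZNFX1 and host of the SNORD12 family, was lowered in HL-60 alone among the calls. It stood there at 13.11, 13.18 and 13.15 in DMSO, 12.92, 12.92 and 12.96 with DAC, and 13, 12.95 and 12.98 with NTX-301. In MOLM-13 it stood at 13.13, 13.23 and 13.16 in DMSO, 13.15, 13.19 and 13.09 with DAC, and 13.18, 13.17 and 13.13 with NTX-301. The MOLM-13 groups overlapped and the HL-60 groups were apart from DMSO. The HL-60 changes were −0.22 ± 0.024 and −0.17 ± 0.024 (adjusted p = 1.88e-05 and 5.71e-05), those in MOLM-13 −0.03 and −0.01 (adjusted p = 0.496 and 0.795). With quantile normalization the latter pair were 0.053 and 0.095 (adjusted p = 0.179 and 0.0199), so that its direction in MOLM-13 depends on the scaling. The difference between the lines passed for both drugs, at 0.19 ± 0.041 for DAC (adjusted p = 0.00177) and 0.16 ± 0.041 for NTX-301 (adjusted p = 0.00394).

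EPB41L4A-AS1, the host of SNORA13, read 10.60, 10.62 and 10.64 in HL-60 with DMSO, 10.39, 10.34 and 10.39 with DAC, and 10.51, 10.45 and 10.51 with NTX-301. The NTX-301 samples lay between the other groups, with changes of −0.25 ± 0.029 for DAC and −0.13 ± 0.029 for NTX-301 (adjusted p = 3.61e-05 and 0.00272). In MOLM-13 the values were 11.08, 11.09 and 10.98 in DMSO, 10.92, 10.95 and 10.93 with DAC, and 11.01, 10.89 and 10.82 with NTX-301. The NTX-301 samples overlapped DMSO there. Its MOLM-13 change with DAC was −0.12 ± 0.047 (adjusted p = 0.0659), passing without DMSO replicate 3 (0.0416), and with NTX-301 −0.14 ± 0.047 (adjusted p = 0.0253). The NTX-301 call was lost without DMSO replicate 1, DMSO replicate 2, NTX-301 replicate 2 or NTX-301 replicate 3, at adjusted p-values of 0.0727, 0.0889, 0.0729 and 0.112.

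SNHG20, which carries SCARNA16, a guide RNA of the Cajal body type, gave 10.26, 10.29 and 10.24 in DMSO, 10.12, 10.11 and 10.01 with DAC, and 10.01, 9.94 and 10.05 with NTX-301 in HL-60. In MOLM-13 it gave 9.50 in each DMSO sample, 9.44, 9.42 and 9.41 with DAC, and 9.43, 9.52 and 9.33 with NTX-301. The treated HL-60 samples were all below DMSO, by −0.18 ± 0.038 and −0.26 ± 0.038 (adjusted p = 0.00344 and 9.2e-05). In MOLM-13 the changes of −0.08 and −0.07 did not pass (adjusted p = 0.254 and 0.258). SEC14L1, which overlaps SNHG20 on the same strand, was higher with NTX-301 in HL-60 by 0.14 (adjusted p = 0.00711), against the direction of SNHG20. SNHG19, which hosts SNORD60, showed the reverse order, with the larger changes in MOLM-13. Its MOLM-13 values were 9.86, 9.96 and 9.85 in DMSO, 9.72, 9.71 and 9.70 with DAC, and 9.66, 9.71 and 9.69 with NTX-301, and those in HL-60 were 10.22, 10.16 and 10.14, then 10.06, 10.13 and 10.10, then 10.04, 10.07 and 10.09. The changes were −0.18 ± 0.041 and −0.20 ± 0.041 in MOLM-13 (adjusted p = 0.00486 and 0.00162). In HL-60, DAC and NTX-301 gave −0.07 and −0.10 (adjusted p = 0.117 and 0.0211), the NTX-301 call being lost without DMSO replicate 1 (0.0861) or NTX-301 replicate 1 (0.0809). The difference between lines was not past the threshold for SNHG19 with either drug.

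GAS5, SNHG8, SNHG32 and SNHG10 were called higher in some comparisons and lower in others, and they were singled out after their values had been seen. SNHG8 and SNHG10 are described with the comparisons of the drugs and of the lines. GAS5, host of 10 box C/D snoRNAs, stood in HL-60 at 14.19, 14.23 and 14.20 in DMSO, 14.13, 14.06 and 14.13 with DAC, and 14.29, 14.23 and 14.30 with NTX-301. In MOLM-13 it stood at 13.99, 14.10 and 14 in DMSO, 14.22, 14.23 and 14.15 with DAC, and 14.16, 14.18 and 14.14 with NTX-301. In HL-60 the DAC samples lay below DMSO and in MOLM-13 both drugs lay above it. DAC lowered GAS5 by −0.10 ± 0.024 in HL-60 (adjusted p = 0.00663) and raised it by 0.17 ± 0.032 in MOLM-13 (adjusted p = 0.00144), a difference between lines of 0.27 ± 0.041 (adjusted p = 5.8e-05). NTX-301 raised it by 0.13 ± 0.032 in MOLM-13 (adjusted p = 0.00523) and gave 0.06 ± 0.024 in HL-60 (adjusted p = 0.0483). That last call was lost after centring (adjusted p = 0.257) and without DMSO replicate 1, DMSO replicate 3, NTX-301 replicate 1 or NTX-301 replicate 3 (0.132, 0.102, 0.143 and 0.161). With quantile normalization the rises were larger, at 0.26 and 0.24 for DAC and NTX-301 in MOLM-13 and 0.12 for NTX-301 in HL-60.

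SNHG32, which hosts SNORD48 and SNORD52, read 13.15, 13.18 and 13.17 in HL-60 with DMSO, 13, 12.97 and 13.02 with DAC, and 13.01, 12.97 and 13.03 with NTX-301. The MOLM-13 values were 13.10, 13.23 and 13.10 in DMSO, 13.28, 13.30 and 13.21 with DAC, and 13.29, 13.23 and 13.24 with NTX-301. Both drugs lowered it in HL-60, with no overlap, by −0.17 ± 0.022 and −0.16 ± 0.022 (adjusted p = 0.000101 and 5.85e-05). The MOLM-13 groups overlapped at DMSO replicate 2, and the changes were 0.12 ± 0.038 and 0.11 ± 0.038 (adjusted p = 0.0292 and 0.033). Both MOLM-13 calls were lost after centring (0.0853 and 0.0832), without DMSO replicate 1 (0.0977 and 0.111) and without DMSO replicate 3 (0.114 and 0.125). The DAC call was also lost without DAC replicate 1 or 2 (0.0687 and 0.0991) and the NTX-301 call without NTX-301 replicate 1 or 3 (0.119 and 0.0615). Quantile normalization gave MOLM-13 changes of 0.20 and 0.21 (adjusted p = 0.0014 and 0.000729). The difference between the lines was 0.29 ± 0.046 for DAC (adjusted p = 9.02e-05) and 0.27 ± 0.046 for NTX-301 (adjusted p = 0.000101).

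SNHG14 was the single host gene that was raised and not lowered against DMSO. It is the very long transcript of the imprinted Prader-Willi region on chromosome 15, from which the SNORD115 and SNORD116 clusters are made and which silences UBE3A on one parental copy in neurons. It read 11.38, 11.30 and 11.36 in HL-60 with DMSO, 11.45, 11.50 and 11.56 with DAC, and 11.44, 11.35 and 11.35 with NTX-301. In MOLM-13 it read 13.96, 13.90 and 13.85, then 13.98, 13.98 and 14 with DAC, and 14.03, 14.05 and 14.07 with NTX-301. The DAC samples lay above DMSO in HL-60 by 0.16 ± 0.034 (adjusted p = 0.00424), and the NTX-301 samples in MOLM-13 by 0.14 ± 0.027 (adjusted p = 0.00105). With NTX-301 in HL-60 the change of 0.03 ± 0.034 did not pass (adjusted p = 0.505). The level there was lower than with DAC by −0.13 ± 0.034 (adjusted p = 0.0125), a call lost without DAC replicate 3 or NTX-301 replicate 2 or 3 (0.0598, 0.0518 and 0.0531). DAC in MOLM-13 gave 0.08 ± 0.027 (adjusted p = 0.0311), which was lost after centring (0.219) and without DMSO replicate 2, DMSO replicate 3, DAC replicate 2 or DAC replicate 3 (0.0764, 0.143, 0.0648 and 0.0873). Both MOLM-13 changes were larger with quantile normalization, at 0.18 for DAC and 0.25 for NTX-301. UBE3A lies on the other strand of the same span. It was lower in HL-60 with DAC and NTX-301, by −0.08 and −0.11 (adjusted p = 0.0204 and 0.00101). In MOLM-13 it was lower with DAC, by −0.10 (0.0349), and not called with NTX-301, at −0.07 (0.102). Other genes, among them PWAR1, overlap the 595855 bases of SNHG14 on its own strand, and their changes were not examined. Neither the use of strand in the authors' counting nor the division of shared reads is given in the sources used here.

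The remaining host genes gave smaller or fewer changes. SNHG5, host of SNORD50A and SNORD50B, was lower in 3 comparisons, by −0.15 and −0.19 in HL-60 and by −0.17 with NTX-301 in MOLM-13 (adjusted p = 0.00224, 0.000145 and 0.00114), the last being −0.10 with quantile normalization. SNHG16, host of the SNORD1 family, was lower with NTX-301 in MOLM-13 by −0.19 ± 0.028 (adjusted p = 0.000212), and by −0.083 with quantile normalization. DAC gave −0.12 there (adjusted p = 0.00522), lost with quantile normalization (0.302). SNHG29 with DAC in HL-60 and SNHG4 with NTX-301 in HL-60 were lower by −0.12 and −0.14 (adjusted p = 0.00376 and 0.00405). MATR3, which overlaps SNHG4 on the same strand, was lower by −0.13 with NTX-301 in HL-60 (adjusted p = 0.000194). MATR3 was also lower where SNHG4 was not called, by −0.06 with DAC in HL-60 (0.0492). In MOLM-13 it fell by −0.21 and −0.25 with DAC and NTX-301 (0.00032 and 7.83e-05), where SNHG4 stood at −0.02 and −0.11. SNHG30 was lower in MOLM-13 by −0.22 and −0.20 (adjusted p = 0.00896 and 0.0115), the NTX-301 call being lost without NTX-301 replicate 2 (0.052). SNHG26 was lower with NTX-301 in HL-60 by −0.14 (adjusted p = 0.00461). Its DAC changes of −0.11 in each line (0.0215 and 0.0412) were lost without HL-60 DAC replicate 2 or 3 or DMSO replicate 1 (0.0532 to 0.0774) and without MOLM-13 DAC replicate 2 or 3 or any 1 DMSO replicate (0.0752 to 0.14). SNHG17 with NTX-301 in HL-60 gave −0.12 (adjusted p = 0.0182), lost without DMSO replicate 1, DMSO replicate 3 or NTX-301 replicate 3 (0.0638, 0.0542 and 0.0901). SNHG6, SNHG9, SNHG11, SNHG21, SNHG25 and SNHG31 passed in none of the 4 comparisons, with log2 changes between −0.09 and 0.09 and a lowest adjusted p of 0.052. Several of these 6 are low in the files, with means from 5.48 to 13.90.

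The second question was where NTX-301 and DAC differed from each other. In HL-60, 11 of 28 host genes differed where 30.4% of all genes did, 6 lower (15.0% of all genes) and 5 higher (15.4%) with NTX-301. Without DAC replicate 1 or without NTX-301 replicate 2 the count was 7. Between the drugs, SNHG3 had the lower level with NTX-301, by −0.22 ± 0.019 (adjusted p = 1.23e-06), while GAS5 and SNHG8 were higher by 0.17 ± 0.024 and 0.17 ± 0.026 (adjusted p = 0.000121 and 0.000224). SNHG8, host of SNORA24, stood at 12.72, 12.73 and 12.73 with DAC, 12.89, 12.88 and 12.92 with NTX-301, and 12.78, 12.88 and 12.80 in DMSO. Its NTX-301 samples did not overlap the DAC samples, and the DMSO samples lay between them except for replicate 2, at the level of NTX-301. Against DMSO, SNHG8 stood at −0.10 with DAC (adjusted p = 0.0162), lost without DAC replicate 1 or DMSO replicate 2 (0.0559 and 0.0674), and at 0.07 with NTX-301 (0.0383), lost after centring (0.184) and without any 1 of NTX-301 replicates 1 to 3 or DMSO replicates 1 and 3 (0.054 to 0.144). In MOLM-13 it read 12.40, 12.44 and 12.42 in DMSO, 12.47, 12.52 and 12.53 with DAC, and 12.52, 12.47 and 12.45 with NTX-301. Its treated samples there all lay above DMSO, by 0.09 ± 0.028 with DAC (adjusted p = 0.0264) and by 0.06 ± 0.028 with NTX-301 (0.0956). The DAC call was lost after centring (0.198) and without DAC replicate 2 or 3 or DMSO replicate 1 or 3 (0.0742, 0.0965, 0.0737 and 0.0688). With quantile normalization its rises were 0.15 and 0.13 in MOLM-13 and 0.12 with NTX-301 in HL-60 (0.00302, 0.00465 and 0.00383). EPB41L4A-AS1 was higher with NTX-301 than with DAC by 0.12 ± 0.029 (adjusted p = 0.00722). SNHG4, a host of SNORA74 family members, was lower by −0.13 ± 0.033 (adjusted p = 0.00969). MATR3 on the same strand and SIL1 on the other overlap SNHG4, and both were lower as well (−0.07 and −0.11, adjusted p = 0.0202 and 0.0196). How reads of the shared span were divided is not given in the sources used here. The median difference over the 28 was 0 on the log2 scale.

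In MOLM-13, 1 of 28 host genes differed between the drugs, where 7.42% of all genes did (4.41% lower and 3.01% higher with NTX-301). This was SNHG12, lower with NTX-301 by −0.14 ± 0.039 (adjusted p = 0.0487). The call was lost in 10 of 13 alternatives, with adjusted p-values of 0.137 and 0.12 without DAC replicate 2 or 3 and of 0.0603, 0.119 and 0.179 without NTX-301 replicate 1, 2 or 3. For the genes that differed most in HL-60, the 95% interval of NTX-301 minus DAC in MOLM-13 ran from −0.09 to 0.04 for SNHG3, from −0.11 to 0.03 for GAS5 and from −0.09 to 0.03 for SNHG8. Whether the gap between the drugs itself differed between lines was not tested.

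**Figure D4:**
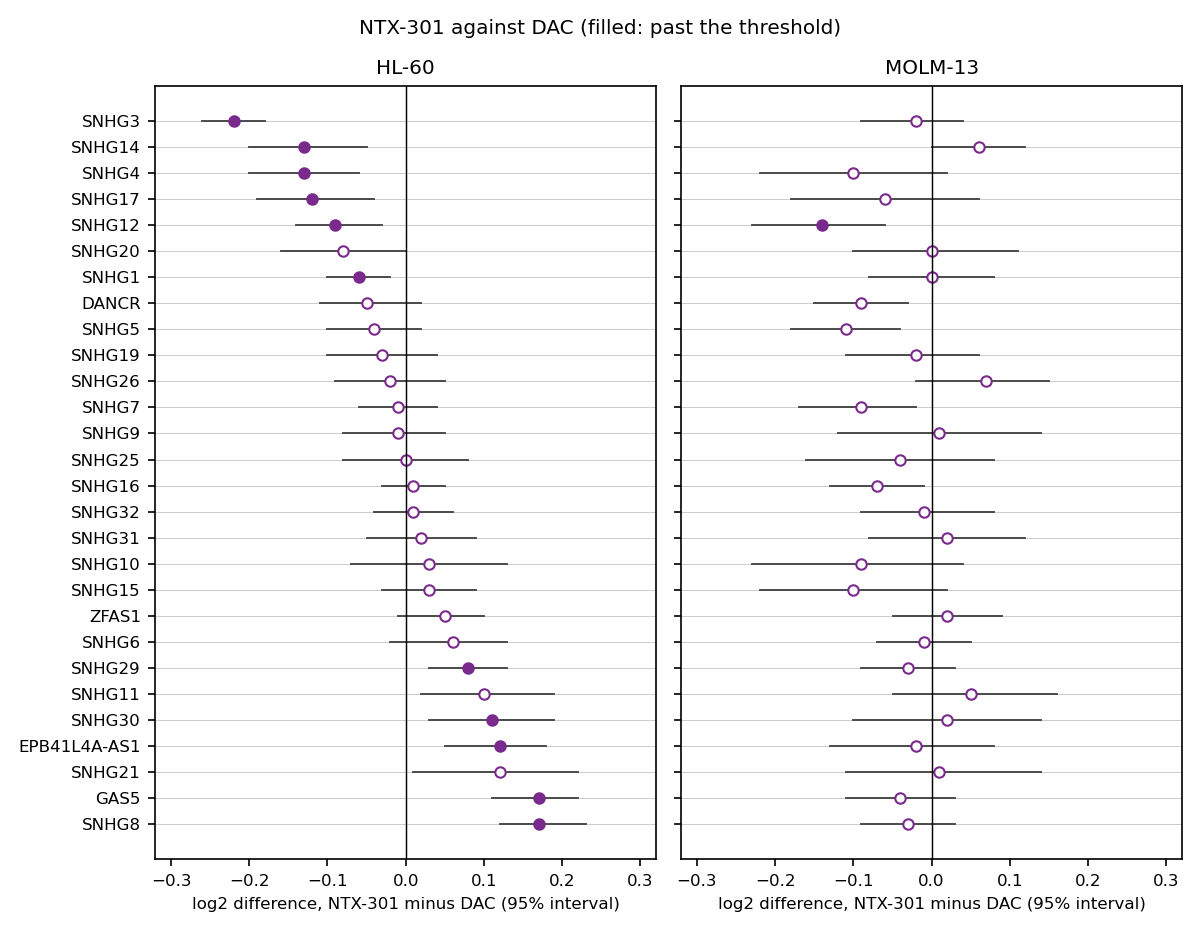
Log2 difference of NTX-301 minus DAC (x axis, point with its 95% interval from limma, 3 samples per group) for the 28 host genes (rows, ordered by the HL-60 value) in HL-60 (left) and MOLM-13 (right), filled where the adjusted p-value was under 0.05. In HL-60 the points run from −0.22 for SNHG3 to 0.17 for GAS5 and SNHG8, and in MOLM-13 SNHG12 is the one filled point.

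The third question was whether a drug moved a host gene differently in the 2 lines. The DAC effect differed for 10 of 28 host genes where 30.0% of the genes tested in both lines differed, 5 lower (17.9%) and 5 higher (12.1%) in MOLM-13. The NTX-301 effect differed for 7 of 28 where 40.0% did, 4 lower (22.4%) and 3 higher (17.6%). The share of host genes was near the background for DAC and below it for NTX-301. With quantile normalization the NTX-301 effect was lower for 6 host genes and higher for 6. All genes then stood at 2994 lower and 2934 higher, so the host genes were not below the background with that scaling. DANCR, SNHG10 and SNHG30 had the lower value in MOLM-13 for both drugs, and SNHG32 and ZFAS1 the higher one. For DAC the SNHG10 call (adjusted p = 0.0274) was lost without HL-60 DAC replicate 2 or 3, HL-60 DMSO replicate 1, MOLM-13 DAC replicate 3 or MOLM-13 DMSO replicate 3 (0.0582 to 0.0842), and the SNHG30 call (0.0269) without HL-60 DAC replicate 1, HL-60 DMSO replicate 2, MOLM-13 DAC replicate 3 or MOLM-13 DMSO replicate 2 (0.0574 to 0.0789). SNHG10, host of SCARNA13, had the widest gap, with an NTX-301 effect of −0.23 ± 0.062 in MOLM-13 (adjusted p = 0.00904) and 0.14 ± 0.046 in HL-60 (adjusted p = 0.0253), a difference of −0.37 ± 0.084 (adjusted p = 0.00149). Its HL-60 call was lost without DMSO replicate 1 or 2 or NTX-301 replicate 2 (0.098, 0.0592 and 0.129), and was 0.087 without the last. GLRX5 overlaps SNHG10 on the other strand. With DAC and NTX-301 it was lower in MOLM-13 by −0.33 and −0.35 (adjusted p = 4.4e-05 and 1.7e-05). In HL-60, where SNHG10 was not lower, GLRX5 fell by −0.08 and −0.12 (0.0456 and 0.00276).

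Host genes with and without the pyrimidine start were set side by side as a description. Of the 10 with it in either annotation, 5 and 6 were lower in HL-60 with DAC and NTX-301, and of the 18 without it, 9 and 9. In MOLM-13 the counts were 2 and 4 of 10, and 7 and 8 of 18. For DAC the medians with and without the start were −0.09 and −0.07 in HL-60, against −0.03 and −0.10 in MOLM-13. GAS5 and SNHG32, both with it, stood at 0.17 and 0.12 with DAC in MOLM-13, and SNHG12 and SNHG19, also with it, at −0.22 and −0.20 with NTX-301 there.

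Few of the snoRNAs inside the host genes were called, and several against the direction of the host. The SNHG14 clusters apart, 59 snoRNAs were measured in each line, at low levels (median 7.50 in HL-60 and 6.89 in MOLM-13). In HL-60, DAC raised 10 of them (16.9%, where 11.6% of all genes were higher) and lowered 0, and 5 of the 10 had a host gene that was lower. The count of 10 ranged from 4 to 15 over the alternatives, with 4 to 6 without DAC replicate 2 or 3 or any 1 DMSO replicate, and 0 were lower in any of them. SNORA73B was higher in HL-60 by 0.30 ± 0.062 with DAC and by 0.28 ± 0.062 with NTX-301 (adjusted p = 0.00317 and 0.00241), while SNHG3, its host, was lower with NTX-301. In MOLM-13, SNORA73A was higher with NTX-301 by 0.22 ± 0.051 (adjusted p = 0.00393), again with SNHG3 lower, and SCARNA13 was higher by 0.58 ± 0.096 (adjusted p = 0.000425) with its host SNHG10 lower. NTX-301 lowered 10 of the 59 in MOLM-13 (16.9%, where 24.8% of all genes were lower), among them 5 carried by SNHG1, at −0.15 to −0.18 (−0.25 to −0.30 with quantile normalization), but this count ranged from 3 to 29 over the alternatives and was 3 without DMSO replicate 1, DMSO replicate 2, NTX-301 replicate 1 or NTX-301 replicate 3. How well these libraries capture RNAs of that length was not tested.

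Genes of the pathways named above were counted from lists. Over all genes tested, DAC and NTX-301 lowered 12.6% and 19.2% and raised 11.6% and 18.3% in HL-60, and in MOLM-13 they lowered 21.2% and 24.8% and raised 15.4% and 20.3%. Among genes with a mean level of at least 10 in MOLM-13, 39.9% and 45.9% were lower. Of 17 proteins that build or assemble snoRNA particles, DAC lowered 15 and NTX-301 lowered 14 in MOLM-13 (88.2% and 82.4%) and neither raised any, with medians of −0.21 and −0.24. In that line NOP56, a core protein of box C/D particles, was at −0.30 ± 0.022 and −0.33 ± 0.022 (adjusted p = 3.37e-06 and 9.45e-07), the latter −0.20 with quantile normalization, and the assembly factor SHQ1 at −0.35 ± 0.028 and −0.38 ± 0.028 (adjusted p = 5.24e-06 and 1.62e-06). In HL-60, 8 of the 17 (47.1%) were lower with each drug and FBL, the methyltransferase of these particles, was higher with DAC, by 0.10 ± 0.021 (adjusted p = 0.00283). NOP58, the partner of NOP56, was lower by −0.15 and −0.17 (adjusted p = 0.000564 and 5.83e-05), and SHQ1 by −0.23 with NTX-301 (adjusted p = 1.12e-05). The median there was −0.08 with DAC and −0.09 with NTX-301, and the NTX-301 count was 13 after centring and 5 with quantile normalization.

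Of 21 factors of nonsense-mediated decay and of the exon junction complex, which marks spliced RNA for it, 10 and 11 were lower and 1 and 3 higher in MOLM-13 with DAC and NTX-301 (47.6% and 52.4% lower, 4.76% and 14.3% higher). MAGOHB and PNRC2 were lower there with DAC by −0.33 ± 0.037 and −0.30 ± 0.034 (adjusted p = 5.14e-05 and 4.92e-05), and EIF4A3 and the release factor ETF1 with NTX-301 by −0.30 ± 0.03 and −0.26 ± 0.026 (adjusted p = 1.06e-05 and 1.16e-05), ETF1 being at −0.15 with quantile normalization. In HL-60 the counts were 8 lower (38.1%) and 0 higher with DAC, among them SMG5 (−0.14, adjusted p = 0.00111) and RBM8A (−0.11, adjusted p = 0.00733), and 5 lower and 3 higher with NTX-301 (23.8% and 14.3%, near the shares of all genes), among them GSPT1 and SMG6 (−0.16 each, adjusted p = 2.29e-05 and 0.000507; GSPT1 was −0.095 with quantile normalization). Without DAC replicate 1, DAC replicate 2, DMSO replicate 1 or DMSO replicate 2, the DAC count in HL-60 was 4, 3, 4 and 5, and with quantile normalization 4. The NTX-301 count of 5 lower in HL-60 was 9 after centring and 2 with quantile normalization, and that of 3 higher was 1 after centring and without DMSO replicate 2 or NTX-301 replicate 2. Known mRNA targets of the pathway went both ways, 1 higher and 4 lower of 14 with DAC and 1 and 5 with NTX-301 in HL-60, and 5 and 7 of 15 with DAC and 4 and 7 with NTX-301 in MOLM-13. The shares lower were 28.6%, 35.7%, 46.7% and 46.7%, and those higher 7.14%, 7.14%, 33.3% and 26.7%. CDKN1A, the cell cycle inhibitor p21, was higher in MOLM-13 by 0.89 ± 0.029 and 1.07 ± 0.029 (adjusted p = 2.87e-08 and 3.64e-09), and ATF4, a stress transcription factor, lower by −0.41 ± 0.032 and −0.39 ± 0.032 (adjusted p = 4.26e-06 and 3.25e-06). In HL-60, DDIT3, a stress factor downstream of ATF4, was lower with both drugs (−0.32 and −0.24, adjusted p = 8.56e-05 and 0.000455), ATF4 was lower with NTX-301 (−0.27, adjusted p = 2.16e-06), and asparagine synthetase, ASNS, was higher with DAC (0.30, adjusted p = 0.000165).

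Of 26 protein-coding genes outside the ribosome known for the same kind of pyrimidine start, 11 and 12 were lower and 3 and 2 higher in HL-60, and 8 and 8 lower and 2 and 3 higher in MOLM-13. The shares lower were 42.3%, 46.2%, 30.8% and 30.8%, and those higher 11.5%, 7.69%, 7.69% and 11.5%. The DAC count of 11 was 5, 4, 7 and 4 without DAC replicate 1, DAC replicate 2, DMSO replicate 1 or DMSO replicate 2, and centring took the MOLM-13 counts to 13 and 14 lower. With quantile normalization the counts higher were 5 and 4 (HL-60) and 9 and 10 (MOLM-13), with 7 lower for DAC in HL-60 and 3 in MOLM-13. VIM, the filament protein vimentin, was higher in all 4 comparisons, by 0.63, 0.80, 0.35 and 0.27 (adjusted p between 2.36e-11 and 1.96e-05), LGALS1, a galectin, in HL-60 by 0.46 and 1.21 (adjusted p = 1.24e-05 and 3.09e-10), and PABPC1, the poly(A)-binding protein, in MOLM-13 by 0.25 and 0.24 (adjusted p = 2.98e-05 and 2.53e-05). Of 13 growth control genes, DAC and NTX-301 lowered 3 and 5 and raised 2 and 2 in HL-60, and lowered 4 and 5 and raised 3 and 3 in MOLM-13. The shares lower were 23.1%, 38.5%, 30.8% and 38.5% and those higher 15.4%, 15.4%, 23.1% and 23.1%, each a count of 5 or fewer genes. The HL-60 count lower for DAC was 1 without DAC replicate 3, both MOLM-13 counts were 2 with quantile normalization, and the MOLM-13 count for NTX-301 was 3 without DMSO replicate 1, DMSO replicate 3, NTX-301 replicate 2 or NTX-301 replicate 3. DDIT4, an inhibitor of the growth kinase mTOR, was higher in HL-60 by 0.21 and 0.51 (adjusted p = 0.00122 and 1.71e-07), and RPTOR, an mTOR partner, was lower there with DAC (−0.30, adjusted p = 1.57e-05). MYC was lower in HL-60 with NTX-301 by −0.25 ± 0.02 (adjusted p = 2.47e-07), and its DAC change there of −0.055 did not pass (0.0572). It was also lower in MOLM-13 with DAC and NTX-301, by −0.13 and −0.15 (adjusted p = 0.00369 and 0.00104). Both MOLM-13 calls of MYC were lost with quantile normalization (0.544 and 0.626). In MOLM-13, SESN1, another inhibitor of that pathway, was higher by 0.29 and 0.38 (adjusted p = 1.01e-05 and 1.05e-06) and EIF4EBP1, a brake on translation, was lower by −0.28 and −0.34 (adjusted p = 1.04e-05 and 2.06e-06).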

How the data were processed

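Each of the 18 samples had 1 table of 1 normalized log2 value per gene, as the authors deposited it. The log2 unit is read from the values, and the normalization and the use of strand are not given in the sources used here. Per the submitters' processing notes, FastQC, Trimmomatic 0.38, HISAT2, StringTie and the build hg19 were named. Coordinates printed are those of RefSeq and GENCODE v29 on GRCh38, and none was converted. Read depth is unknown, so no interval that needs it is given and precision rests on the replicates.

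limma 3.58.1 (R 4.3.3) gave every two-sided test, with its trended empirical Bayes variance and the Benjamini-Hochberg adjustment over the whole table, in 1 fit of the 9 samples of a line with 6 residual degrees of freedom, or of all 18 samples for differences between lines. A gene entered the test if 3 samples or more reached a linear value of 1, leaving 17046 (HL-60) and 17475 (MOLM-13). The steps were tested on simulated data. Host genes called with a log2 change of at least 0.2 were described in full, the 10 with the lowest adjusted p first, and of each list the 2 lowest per comparison with DMSO. The host genes and lists were chosen with earlier results of these data known. Alternatives were other filters, centring, quantile normalization, no trend, only the groups compared, the replicate block and leaving out each sample.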

Additional observations from a re-analysis of the deposited data

Results flagged for a closer look

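These drug effects differed between the lines in limma's test of MOLM-13 minus HL-60 over all 18 samples (adjusted p under 0.05), and the cause was not tested. For DAC the differences in log2 change were −0.27 for DANCR, −0.25 for SNHG10, −0.20 for SNHG30, −0.16 for SNHG3 and −0.14 for SNHG1, and 0.29 for SNHG32, 0.27 for GAS5, 0.19 for ZFAS1, 0.19 for SNHG8 and 0.13 for SNHG29. For NTX-301 they were −0.37 for SNHG10, −0.32 for DANCR, −0.29 for SNHG30 and −0.15 for SNHG16, and 0.27 for SNHG32, 0.19 for SNHG20 and 0.16 for ZFAS1. The stated concentration differed between the lines as well. With quantile normalization the SNHG1 and SNHG3 differences for DAC were −0.046 and −0.072 (adjusted p = 0.399 and 0.0414) and the SNHG20 difference for NTX-301 was 0.13 (0.111). The SNHG20 call was also lost without NTX-301 replicate 2 of HL-60 (0.0618) or of MOLM-13 (0.0644). The libraries on which the SNHG10 and SNHG30 calls for DAC rest are given with the comparison of the lines.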

How the results depend on the processing

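Of 90 calls of a host gene in a comparison, 63 were kept in every alternative, 27 were lost in at least 1 and 0 changed sign. The single host gene that differed between drugs in MOLM-13 became 0 after centring, with quantile normalization, with no mean-variance trend, with only the 2 groups compared and with the replicate block, and 2 with the stricter filter (mean log2 value of at least 5). The NTX-301 effect differed between lines for 12 host genes with quantile normalization, where 2994 of all genes were lower and 2934 higher in MOLM-13. Leaving out 1 sample gave 13 to 14 host genes for DAC and 13 to 17 for NTX-301 against DMSO in HL-60, and 10 to 12 and 13 to 15 in MOLM-13. It gave 7 to 10 and 0 to 1 for NTX-301 against DAC in HL-60 and MOLM-13, and 8 to 11 and 6 to 9 for the DAC and NTX-301 effects between lines. ZFAS1 in MOLM-13, not called, changed sign with quantile normalization, to 0.053 for DAC and 0.095 for NTX-301 (adjusted p = 0.0199), and for NTX-301 to 0.016 and 0.0027 without DMSO replicate 2 and NTX-301 replicate 3 (−0.034 to 0.016 over the samples left out). SNORA17B with NTX-301 in MOLM-13 went to −0.014 after centring, and SEC14L1 with DAC in HL-60, not called, to 0.016 and 0.0053 without DAC replicate 2 and DMSO replicate 3 (−0.052 to 0.016 over the samples left out). Same-numbered samples of a line correlated by −0.16 to 0.12 in their deviations from group means. Differently numbered samples were not set beside them, so whether same-numbered samples belong together is not settled. The replicate block is given here only. Depth is unknown, which limits the reading of low genes such as SNHG9, SNHG31 and most snoRNAs.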
